A study of Sus scrofa with 9 samples.

Results

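The 10 genes described here make the MHC class II presentation machinery of the pig, in which the MHC is called the swine leukocyte antigen (SLA) complex. They are the chains of the peptide-presenting molecules SLA-DR and SLA-DQ (SLA-DRA, SLA-DRB1, SLA-DQA1, SLA-DQB1), the chains of the peptide editor SLA-DM (SLA-DMA, SLA-DMB), the chains of its modulator SLA-DO (SLA-DOA, SLA-DOB), the invariant chain CD74 and the class II transactivator CIITA. The list was set by gene name and not by measured values. It accounts for 10 of the 21357 genes in the deposited table, of which 6 carry the name there. The other 4 (SLA-DRA, SLA-DRB1, SLA-DQA1 and SLA-DOB) were found by the NCBI gene number in their description, because the table calls them HLA-DRA and HLA-DOB or leaves them without a name. No other gene of the table has a name that begins with SLA-D or HLA-D.

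The measurements were RNA-seq profiles of the abdominal aorta of Tibetan minipigs, a small pig breed that develops arterial lesions on a fatty diet. NC pigs had a normal diet for 24 weeks, H8 pigs had a high-fat diet for 8 weeks and carry the label hypercholesterolemia, and H24 pigs had the high-fat diet for 24 weeks and carry the label atherosclerosis, with 3 libraries in each group. The study's methods describe the NC and H24 pigs as males bought at 3 to 4 months of age, of which 3 of 5 per group were picked at random for sequencing, and the H24 diet as basal feed with shortening oil, cholesterol and egg yolk powder (high-fat/cholesterol, HFC). They do not describe the H8 pigs. No group was kept on the normal diet for 8 weeks, so a shorter diet and a younger age cannot be told apart in H8. The labels name no transgene or drug in any group. The tissue labels name the abdominal aorta, while the extraction text mentions an adipose type.

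MHC class II molecules hold peptides from proteins that a cell has taken up and show them to CD4 T cells. Their chains are assembled with CD74, which blocks the groove until proteases of the endosome cut it down to a short peptide (CLIP). SLA-DM then exchanges CLIP for antigen peptides and SLA-DO restrains SLA-DM, while CIITA switches on the genes of the whole pathway. Dendritic cells, B cells and macrophages express class II, and endothelium and smooth muscle can be induced to express it by interferon gamma. Macrophages, dendritic cells and T cells gather in the intima of arterial lesions.

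Levels are given as FPKM, the fragment count that the authors scaled for transcript length and sequencing depth, so that levels of different genes are compared per length. Changes are log2 fold changes with their standard error (SE) from edgeR's quasi-likelihood test on the estimated counts. A gene was called higher or lower by the thresholds of the study, which ask for a log2 fold change above 1 or below -1 and p under 0.05 before adjustment, and the p-value adjusted over all genes (Benjamini-Hochberg) is given beside it. The libraries held between 44094263 and 75787978 estimated counts, and the 10 genes had between 26 (SLA-DOB) and 322491 (CD74) counts in a library, so counting error weighed most on SLA-DOB. The floor of 3 counts was equal to 0.0396 to 0.0680 CPM.

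H24 replicate 3 stood apart from the other libraries. Across genes, its Pearson's r of log2 levels was 0.918 and 0.891 with the other H24 libraries, whereas those 2 had an r of 0.962 with each other. Its smooth muscle markers (7 of 7 in the table) summed to 1747 FPKM, against 10130 to 13990 FPKM in the NC and H8 libraries, and its macrophage markers (9 of 9) to 1944 FPKM, against at most 303 FPKM in any other library. The H24 estimates of the 10 genes and the H24 counts of calls for each gene list are therefore also given without this library. Every pair of libraries differed by more than counting noise, with a chi-square of at least 187 per degree of freedom.

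In the NC aorta the levels of the 10 genes were spread from over 100 FPKM to under 1 FPKM. CD74 and SLA-DRA led, with means of 117 ± 37.9 and 109 ± 35.2 FPKM (SD, n = 3), and ranked 315 and 330 among the 21357 genes. They kept the same order in only 2 of 3 libraries, so these neighbours did not differ beyond their spread. Next came SLA-DQA1 with 36.7 ± 13.7, SLA-DQB1 with 27.5 ± 17.7 and SLA-DRB1 with 19.8 ± 5.15 FPKM, whose order also held in 2 of 3 libraries for each pair of neighbours. SLA-DMA (9.24 ± 2.66 FPKM) lay above SLA-DMB (8.21 ± 2.09 FPKM) in 3 of 3 libraries, although their SDs overlapped. SLA-DOA (3.17 ± 1.79 FPKM) and CIITA (2.69 ± 1.64 FPKM) followed, and SLA-DOB was last at 0.140 ± 0.0611 FPKM.

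**Figure D1:**
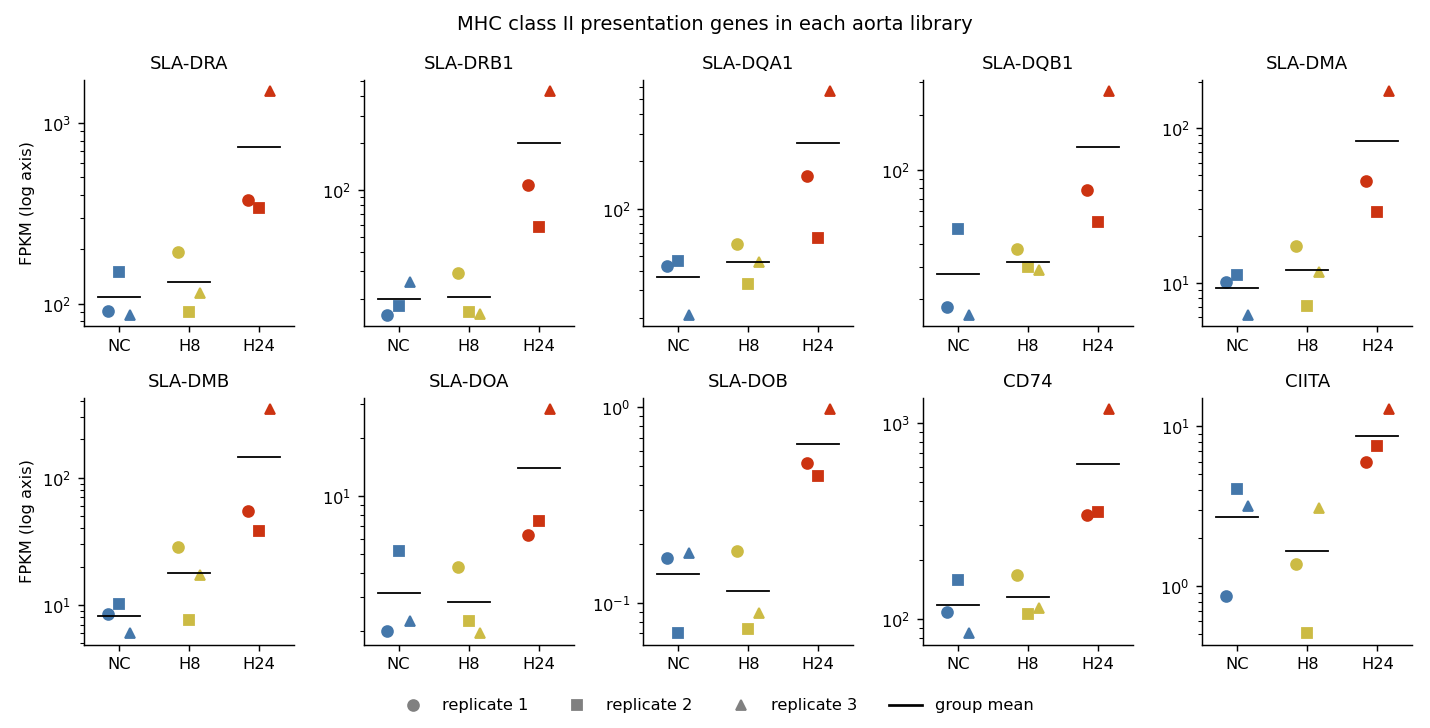
FPKM of the 10 class II presentation genes in each of the 9 libraries (log axis, a separate scale for each gene). Points are libraries, with the replicate number as the symbol, and bars are group means (n = 3). In every panel the 3 H24 libraries lie above the 3 NC and the 3 H8 libraries, and H24 replicate 3 is the highest.

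After 24 weeks of the HFC diet all 10 genes were called higher than in NC, and none lower. The median log2 fold change was 2.56, with a range from 1.67 (CIITA) to 4.13 (SLA-DMB), while the median over all 14828 genes tested was 0.01. In all genes tested, 9.95% were called higher and 1.52% lower. The FPKM of every H24 library lay above that of every NC library for 10 of 10 genes, against 12.8% of all genes tested. By edgeR's adjusted p-values, 0 of the 10 genes passed 0.05 (lowest 0.132, highest 0.286), although all 10 had an unadjusted p under 0.05, and 0 of all genes tested were called at that level in either direction (0%). DESeq2 placed 9 of the 10 past the adjusted threshold on the same counts, against 5.93% of all genes tested. In these bulk samples, more cells that express class II and more class II RNA per cell cannot be told apart.

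SLA-DR was the most abundant class II molecule in all groups by the level of its alpha chain. SLA-DRA, that alpha chain, lies on chromosome 7 (24825011 to 24830844, plus strand) and had 91.3, 150.0 and 86.9 FPKM in NC replicates 1 to 3, 193.5, 89.8 and 115 FPKM in H8, and 377, 338 and 1504 FPKM in H24. All H24 libraries were above all others, and the NC and H8 libraries overlapped. H24 exceeded NC by a log2 fold change of 2.73 ± 0.66 (SE), or 6.64-fold (edgeR adjusted p = 0.150). By group mean, SLA-DRA ranked 330 of all genes in NC and 41 in H24 (93 without H24 replicate 3).

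SLA-DRB1, the beta chain of SLA-DR (24868656 to 24914037, minus strand), had 15.8, 18.04 and 25.6 FPKM in NC, 29.3, 16.5 and 16.1 FPKM in H8, and 107, 58.3 and 434 FPKM in H24. The lowest H24 value was above every NC and H8 value. Its H24/NC log2 fold change was 3.32 ± 0.77, or 9.96-fold (edgeR adjusted p = 0.136). The gene model in the table is longer than the SLA-DRB1 gene that RefSeq lists on Sscrofa11.1 (24901386 to 24914016) and also covers a second protein-coding gene there (LOC100153139), so its reads may come from more than 1 gene.

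SLA-DQ, the other presenting molecule, was also higher in H24 than in NC. SLA-DQA1 (24951495 to 24995637, plus strand), its alpha chain, had 43.0, 46.1 and 21.0 FPKM in NC, 58.9, 32.9 and 45.8 FPKM in H8, and 163, 64.5 and 564 FPKM in H24. SLA-DQB1 (24939676 to 24977270, minus strand), its beta chain, had 18.2, 48.0 and 16.5 FPKM in NC, 37.4, 29.8 and 28.7 FPKM in H8, and 78.3, 52.5 and 269 FPKM in H24. For both chains the groups H24 and NC did not overlap, but for SLA-DQB1 the gap was narrow, since H24 replicate 2 (52.5 FPKM) lay next to NC replicate 2 (48.0 FPKM). The H24/NC log2 fold changes were 2.82 ± 0.80 for SLA-DQA1 (edgeR adjusted p = 0.199) and 2.24 ± 0.74 for SLA-DQB1 (edgeR adjusted p = 0.259). Both models are longer than the RefSeq genes (24953472 to 24959313 for SLA-DQA1 and 24969034 to 24977238 for SLA-DQB1), and each covers the RefSeq gene of the other chain. The models overlap by 25776 bp on opposite strands, and the strand setting of the counting is not given in the sources used here. Reads of the overlap therefore cannot be assigned to one of them with certainty.

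SLA-DM, which edits the peptide cargo inside the endosome, held the gene with the largest estimated change of the 10, SLA-DMB. This beta chain (25119278 to 25125106, minus strand) had 8.48, 10.2 and 5.998 FPKM in NC, 28.6, 7.61 and 17.1 FPKM in H8, and 55.3, 38.3 and 344 FPKM in H24. Its H24 libraries were above all others, and its H8 libraries were spread from the NC level to 28.6 FPKM. The H24/NC log2 fold change was 4.13 ± 0.91, or 17.5-fold (edgeR adjusted p = 0.132). SLA-DMA (25133494 to 25138086, minus strand) had 10.2, 11.3 and 6.23 FPKM in NC, 17.3, 7.09 and 11.8 FPKM in H8, and 46.0, 28.8 and 174 FPKM in H24, with a log2 fold change of 3.14 ± 0.71 (edgeR adjusted p = 0.135). The ratio of SLA-DMB to SLA-DMA was 0.831 to 0.962 in the NC libraries, 1.07 to 1.66 in H8 and 1.20 to 1.98 in H24, so that SLA-DMB was the lower chain in all NC libraries and the higher one in all H8 and H24 libraries. This ratio was chosen after its values were seen and was not tested.

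SLA-DO, which binds SLA-DM and is typical of B cells and some dendritic cells, was the least abundant of the class II molecules. SLA-DOA (25178086 to 25182954, minus strand) had 2.01, 5.23 and 2.27 FPKM in NC, 4.31, 2.25 and 1.95 FPKM in H8, and 6.32, 7.41 and 28.03 FPKM in H24, a log2 fold change of 2.10 ± 0.70 between H24 and NC (edgeR adjusted p = 0.266). SLA-DOB (24984834 to 25037892, minus strand) stayed under 1 FPKM in every library, with 0.170, 0.0701 and 0.181 FPKM in NC, 0.185, 0.0739 and 0.0889 FPKM in H8, and 0.518, 0.445 and 0.975 FPKM in H24. The SLA-DOB libraries of H24 were above all others, and its log2 fold change was 2.17 ± 0.58 (edgeR adjusted p = 0.179). The SLA-DOB model is also far longer than the RefSeq gene (25030435 to 25038196). It overlaps SLA-DQA1 by 10804 bp and an unnamed gene (24993416 to 25001394) by 7979 bp, both on the other strand. Reads of these genes could not be separated there. Over the 9 libraries the unnamed gene averaged 14.96 FPKM and SLA-DOB 0.301 FPKM. With limma on log2(FPKM + 1), which compresses low levels, SLA-DOB had 0.52 in H24/NC and was not called.

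CD74, the chaperone of all class II chains and a surface receptor for the cytokine MIF, lies outside the MHC on chromosome 2 (151399969 to 151409841, minus strand). It had 109, 159 and 84.2 FPKM in NC, 166, 106 and 113 FPKM in H8, and 338, 351 and 1176 FPKM in H24. The H24 libraries were again above all others, and the 2 lower H24 libraries were close to each other. The H24/NC log2 fold change was 2.38 ± 0.60, or 5.22-fold (edgeR adjusted p = 0.156), and CD74 ranked 315 in NC and 49 in H24 (100 without H24 replicate 3).

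CIITA, the regulator that recruits the transcription machinery to class II promoters, lies on chromosome 3 (32172214 to 32230780, minus strand). It had 0.865, 4.03 and 3.16 FPKM in NC, 1.38, 0.506 and 3.09 FPKM in H8, and 5.997, 7.47 and 12.7 FPKM in H24. The NC libraries were spread more widely than for most of the genes, and H24 replicate 3 was less far above the other H24 libraries than for the other genes. The H24/NC log2 fold change of 1.67 ± 0.59 was the smallest of the 10 (edgeR adjusted p = 0.286). Whether it differed from the change of the genes that CIITA controls was not tested.

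Without H24 replicate 3, the median H24/NC log2 fold change of the 10 genes fell to 1.62, and 9 of 10 were called higher, against 6.7% of all genes tested. The exception was CIITA, with 1.29 ± 0.56 (edgeR adjusted p = 0.458). By edgeR's adjusted threshold 4 genes then passed, against 1.94% of all genes. These were SLA-DMB with a log2 fold change of 2.47 (edgeR adjusted p = 0.0091), SLA-DRB1 with 2.02 (edgeR adjusted p = 0.0221), SLA-DMA with 1.97 (edgeR adjusted p = 0.0288) and SLA-DRA with 1.67 (edgeR adjusted p = 0.0361). CD74 had 1.52 (edgeR adjusted p = 0.0533). The chains of SLA-DQ and SLA-DO had lower estimates too, with 1.58 for SLA-DQA1, 1.19 for SLA-DQB1, 1.07 for SLA-DOA and 1.75 for SLA-DOB (edgeR adjusted p = 0.182 to 0.445). Leaving out a control library instead also lost calls. Without NC replicate 1, 8 genes were called (not SLA-DQB1 and SLA-DOA), against 7.36% of all genes, and without NC replicate 3, 7 genes (not SLA-DQB1, SLA-DOA and CIITA), against 6.83% of all genes.

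**Figure D2:**
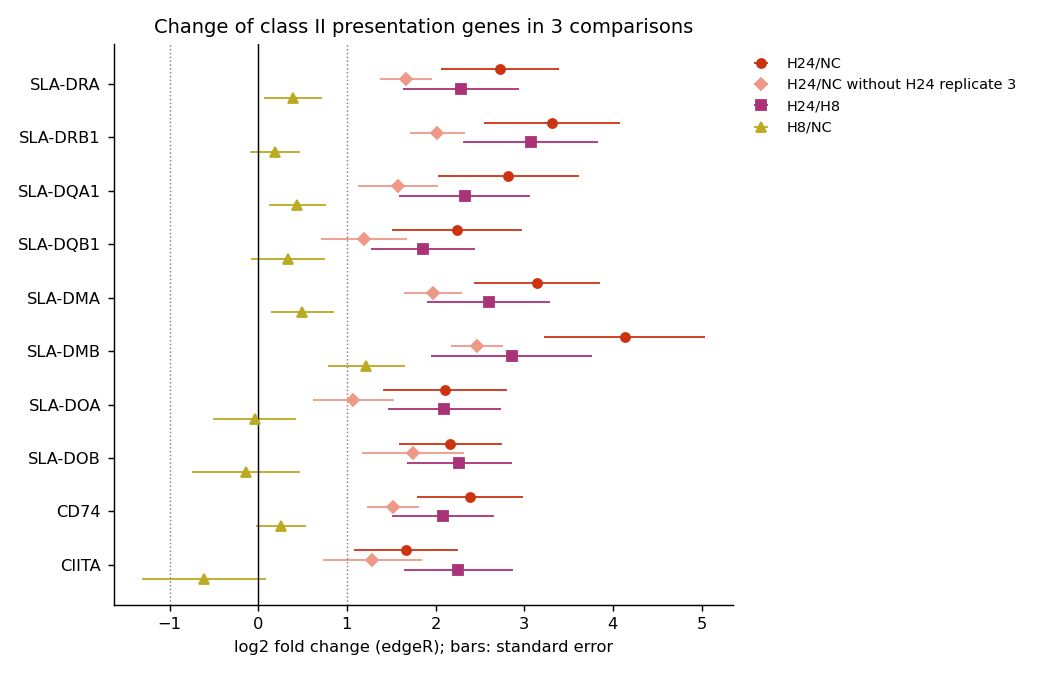
log2 fold changes of the 10 genes in H24/NC, in H24/NC without H24 replicate 3, in H24/H8 and in H8/NC. Points are edgeR estimates, bars are standard errors and dotted lines mark a log2 fold change of 1 in either direction. The H24/NC points run from 1.67 to 4.13 and the H8/NC points from -0.61 to 1.22.

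After 8 weeks of the high-fat diet, 1 of the 10 genes was called higher than in NC and none lower, against 5.11% called higher and 2.27% called lower of the 14336 genes tested. The median log2 fold change of the 10 was 0.30, beside 0.01 over all genes, and 7 of 10 were above 0, as were 51.5% of all genes. The gene called was SLA-DMB, with 1.22 ± 0.44 or 2.33-fold (edgeR adjusted p = 0.276). Its groups overlapped, since H8 replicate 2 (7.61 FPKM) lay within the NC range, and the call was lost without NC replicate 1, NC replicate 3 or H8 replicate 1, in limma, and in an edgeR fit over all 9 libraries. None of the 10 had all H8 libraries above all NC libraries, a pattern found in 6.91% of all genes. Adjusted p-values were 0.276 to 0.981 in edgeR, with 1 gene at an unadjusted p under 0.05, against 0.014% of all genes called higher and 0.014% called lower by adjusted p, and DESeq2 also placed 0 of the 10 past the adjusted threshold, against 3.1% of all genes.

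The other presenting and editing genes had small positive estimates within 2 SE of 0 after 8 weeks. These were 0.40 ± 0.33 for SLA-DRA, 0.19 ± 0.28 for SLA-DRB1, 0.44 ± 0.32 for SLA-DQA1, 0.34 ± 0.42 for SLA-DQB1, 0.50 ± 0.35 for SLA-DMA and 0.26 ± 0.29 for CD74. SLA-DOA (-0.04 ± 0.47), SLA-DOB (-0.13 ± 0.61) and CIITA (-0.61 ± 0.70) were below 0. A change of the size seen at 24 weeks was not detected, but these intervals do not show that the levels were equal. H8 replicate 1 was the highest H8 library for 9 of the 10 genes, the exception being CIITA, and the macrophage markers of that library also had the highest sum (186 FPKM, against 32.5 and 89.4 FPKM in replicates 2 and 3). Without H8 replicate 1 the median change of the 10 genes was 0.04.

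The comparison of H24 with H8, whose labels share the high-fat diet and differ in its length, shares its H24 libraries with H24/NC. All 10 genes were called higher, against 7.22% called higher and 3.05% called lower of the 14788 genes tested, with a median log2 fold change of 2.28 beside 0.04 over all genes. Estimates ran from 1.86 ± 0.59 (SLA-DQB1) to 3.07 ± 0.76 (SLA-DRB1). SLA-DMB had 2.86 ± 0.91, SLA-DMA 2.60 ± 0.69, SLA-DRA 2.29 ± 0.65, CIITA 2.26 ± 0.61 and CD74 2.09 ± 0.57. The groups did not overlap for any of the 10 genes, against 15.5% of all genes that were higher in every H24 library. Adjusted p-values were 0.336 to 0.341 in edgeR, where 0 of 10 passed (0.0135% of all genes were called higher at that level) although all 10 had an unadjusted p under 0.05, while DESeq2 placed 10 past the threshold (3.02% of all genes). Without H24 replicate 3, 9 genes were called (3.8% of all genes), the median was 1.26 and SLA-DQB1 had 0.85. The calls of SLA-DQA1 and SLA-DMB were lost without H8 replicate 2 (3.74% of all genes called higher) and that of SLA-DQB1 without H8 replicate 3 (4.19%).

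Ratios within a library do not depend on how libraries are scaled to each other. For the ratio of SLA-DM to SLA-DO, each was taken as the mean of its 2 chains. SLA-DOA was 11.8 to 74.7 times SLA-DOB in the libraries, so the SLA-DO mean came nearly all from SLA-DOA. The ratio of SLA-DM to SLA-DO was 8.58, 4.04 and 4.995 in NC, 10.2, 6.32 and 14.2 in H8, and 14.8, 8.55 and 17.9 in H24. The groups nearly separated, as the lowest H24 value (8.55) lay just below the highest NC value (8.58). The H24/NC difference of the log2 ratio was 1.24 ± 0.45 (SE), with p = 0.2 in a two-sided exact permutation test and 0.45 after adjustment over 9 tests. With 3 libraries against 3 the exact test cannot go below p = 0.1. The difference was 1.01 without H24 replicate 3. The ratio of SLA-DQ to SLA-DR was 0.488 ± 0.135 in NC, 0.530 ± 0.0852 in H8 and 0.408 ± 0.103 in H24 (SD, n = 3), and that of CD74 to SLA-DRA was 1.07 ± 0.111, 1.01 ± 0.1598 and 0.906 ± 0.129. For both ratios the groups overlapped in every comparison (exact permutation p = 0.2 to 0.6). The lowest of these p-values equals that of SLA-DM to SLA-DO in H24/NC, so the test does not set that ratio apart.

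**Figure D3:**
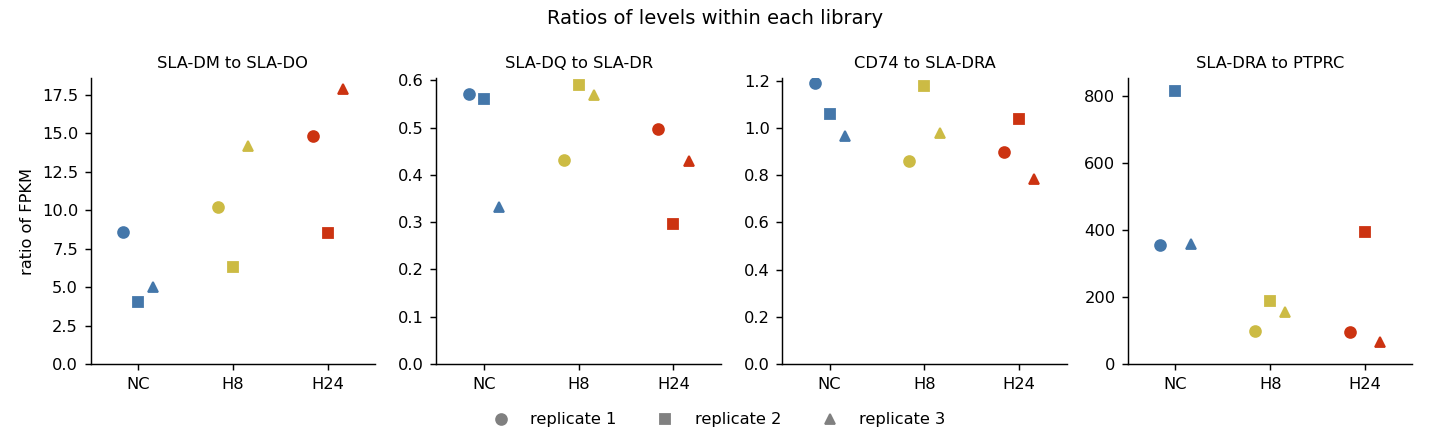
Ratios of FPKM within each library for SLA-DM to SLA-DO, SLA-DQ to SLA-DR, CD74 to SLA-DRA and SLA-DRA to PTPRC. Each point is 1 library, with the replicate number as the symbol, and axes start at 0. SLA-DM to SLA-DO runs from 4.04 to 8.58 in NC and from 8.55 to 17.9 in H24, while SLA-DRA to PTPRC runs from 356 to 816 in NC and from 66.0 to 395 in H24.

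PTPRC, the leukocyte antigen CD45, served to set class II beside the leukocyte content of the libraries. PTPRC had 0.257, 0.184 and 0.243 FPKM in NC, 1.96, 0.480 and 0.747 FPKM in H8, and 4.00, 0.855 and 22.8 FPKM in H24. It was called higher in H24/NC (log2 fold change 5.32 ± 1.17, edgeR adjusted p = 0.132) and in H8/NC (2.33 ± 0.51, edgeR adjusted p = 0.187), with no overlap of the groups in either. Its H24/NC log2 fold change was 3.35 ± 0.58 without H24 replicate 3 (edgeR adjusted p = 0.0331). SLA-DRA per PTPRC was 356, 816 and 358 in NC, 98.9, 187 and 154 in H8, and 94.3, 395 and 66.0 in H24. All H8 libraries had a lower ratio than all NC libraries, and 1 H24 library (replicate 2) lay within the NC range. These ratios had no test, and the source of the class II RNA in the NC aorta was not tested.

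The marker lists of the cell types that can hold class II moved as follows. Macrophage markers summed to 25.4 to 34.2 FPKM in NC, 32.5 to 186 FPKM in H8 and 181 to 1944 FPKM in H24, and 303 FPKM was the highest H24 sum without H24 replicate 3. Of the 8 macrophage markers that averaged at least 0.1 FPKM in both groups, 8 were called higher in H24/NC (7 without H24 replicate 3) and 4 in H8/NC. Most genes of the other leukocyte lists were low in NC, and many passed the filter on low values only through the group where they were high, so calls are counted over genes at 0.1 FPKM or more in both groups. Over all genes tested, 9.95% were called higher in H24/NC (6.7% without H24 replicate 3) and 5.11% in H8/NC. Dendritic cell markers (8 of 9 in the table) summed to 0.864 to 1.21, 0.966 to 1.27 and 2.68 to 8.41 FPKM. Only 2 of them reached that level in both groups of H24/NC, of which 1 was called higher (also without H24 replicate 3), and 2 in H8/NC, of which 0 were called by edgeR. CLEC9A, a marker of cross-presenting dendritic cells, was listed at 0 in all but H24 replicate 3. B cell markers (6 of 7) summed to 5.10 to 5.81, 1.38 to 3.72 and 9.73 to 12.03 FPKM, nearly all of it from CD79A, which had a log2 fold change of 0.97 in H24/NC and was not called. Its partner chain CD79B had -2.10 ± 0.97 and was not called either, BLK was called higher in H24/NC from at most 0.0698 FPKM in NC, and MS4A1 (CD20) was at most 0.190 FPKM in any library. T cell markers (7 of 7) summed to 0.262 to 0.418, 0.712 to 1.03 and 3.91 to 17.4 FPKM. The highest of these sums, in H24 replicate 2, held 15.8 FPKM of CD3E. Without CD3E the other 6 T cell markers summed to 2.69, 1.62 and 11.3 FPKM in H24 replicates 1 to 3, against at most 0.308 FPKM in NC and 0.931 FPKM in H8. Only 1 T cell marker reached 0.1 FPKM in both groups of H24/NC, CD2, and it was called higher with and without H24 replicate 3. Neutrophil and osteoclast markers (8 of 9) summed to 0.807 to 1.08, 3.94 to 10.3 and 10.7 to 351 FPKM, with at most 20.7 FPKM in H24 without replicate 3. Of 3 that reached 0.1 FPKM in both groups of H24/NC, 2 were called higher, as they were without H24 replicate 3 (CSF3R and ACP5).

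No endothelial or smooth muscle marker was called by edgeR. Endothelial markers (6 of 6) summed to 64.5 to 165 FPKM in NC, 51.2 to 82.4 FPKM in H8 and 72.6 to 125 FPKM in H24, with 0 of 6 called by edgeR at an unadjusted p under 0.05 and a fold change beyond the threshold in any comparison, with or without H24 replicate 3. Smooth muscle markers summed to 11920 to 13990 FPKM in NC and to 1747 to 12050 FPKM in H24 (8187 and 12050 FPKM without replicate 3), and 0 of 7 were likewise called. Adipocyte markers (6 of 6) summed to 94.5 to 164, 55.5 to 143 and 64.3 to 218 FPKM, mostly from FABP4 in all but H24 replicate 3 (77.2 of 218 FPKM), and the members went different ways. In H24/NC 2 of 6 were called higher (9.95% of all genes tested), with and without H24 replicate 3 (LEP and LPL). In H8/NC, 1 of the 3 adipocyte markers at 0.1 FPKM or more in both groups was called lower (2.27% of all genes tested). Of all 5 tested there, 3 were called lower. These were ADIPOQ with -6.39, PLIN1 with -7.57 and CIDEC with -1.64. FABP4 had -0.38 and -0.06 in H24/NC and H8/NC. ADIPOQ and PLIN1 averaged under 0.1 FPKM in H8 and were tested there through their NC values. Markers of lymphoid tissue stroma (4 of 5) summed to 74.1 to 96.2, 53.3 to 93.1 and 71.4 to 101 FPKM, nearly all of it CCL19, and CCL21 was called higher in H24/NC, with and without H24 replicate 3. NC replicate 2 was the highest NC library for 8 of the 10 class II genes, the exceptions being SLA-DRB1 and SLA-DOB. It also had the highest NC sums of endothelial markers (165 FPKM, against 64.5 and 87.3 FPKM) and adipocyte markers (164 FPKM, against 94.5 and 95.6 FPKM), and the lowest of macrophage markers (25.4 FPKM). The part of these cell types in the class II levels was not tested.

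Regulators of class II transcription came next in the pathway. Of 16 regulators tested (18 listed), 5 were called higher in H24/NC, 3 in H8/NC and 2 in H24/H8, and none lower. Of all genes tested, 9.95%, 5.11% and 7.22% were called higher in these comparisons. SPI1 (PU.1), a myeloid transcription factor, was at 1.66 to 2.45 FPKM in NC, 4.31 to 14.9 FPKM in H8 and 16.6 to 164 FPKM in H24, with log2 fold changes of 4.91 ± 1.01 in H24/NC and 2.26 ± 0.44 in H8/NC. IRF8, a factor of macrophages, dendritic cells and B cells, had 4.46 ± 0.81 and 2.11 ± 0.46. IRF1, which acts on the interferon-responsive promoter of CIITA, had 1.72 ± 0.45 and 1.59 ± 0.67, but 46.8 FPKM in H8 replicate 2 against 9.23 and 10.9 FPKM in the other H8 libraries.

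IFNGR1, a chain of the interferon gamma receptor, and SOCS1, an inhibitor of its signalling, were called in H24/NC alone of the comparisons with NC (1.22 ± 0.39 and 1.41 ± 0.59). The SOCS1 groups overlapped there, as H24 replicate 1 (1.65 FPKM) lay below NC replicate 3 (1.93 FPKM). IFNG itself was at most 0.0863 FPKM in any library and did not enter the tests. The subunits of the complexes that bind the class II promoter directly (RFX5, RFXAP, RFXANK, NFYA, NFYB, NFYC and CREB1) had H24/NC log2 fold changes of -0.57 to 0.42 and H8/NC log2 fold changes of -0.49 to -0.02, and 0 of 7 were called by edgeR in any comparison. With H24 replicate 3 left out, 3 of the 16 regulators were called in H24/NC, against 6.7% of all genes tested (SPI1 with 3.001, IRF8 with 3.11 and IRF1 with 1.18). IFNGR1 then had 0.77 and SOCS1 1.14 in H24/NC. In H24/H8 the 1 call (3.8% of all genes tested) was JAK2 with 1.06 ± 0.37, which had 0.90 ± 0.37 and was not called with all libraries. SPI1 (0.73 ± 0.45) and IRF8 (0.995 ± 0.51), the 2 regulators called in H24/H8 with all libraries, were no longer called.

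Processing and trafficking genes prepare antigens, cut CD74 and carry class II to and from the surface. Of 16 tested, 9 were called higher in H24/NC, 5 in H8/NC and 6 in H24/H8, with none lower and medians of 2.10, 0.61 and 1.44. The shares called higher among all genes tested were 9.95%, 5.11% and 7.22%. CTSS (cathepsin S), the protease that makes the final cuts of CD74, had 2.61 to 4.08 FPKM in NC, 4.41 to 45.1 FPKM in H8 and 16.4 to 399 FPKM in H24, with log2 fold changes of 5.57 ± 1.20 in H24/NC and 2.72 ± 0.76 in H8/NC. IFI30 (GILT), which reduces disulfide bonds of antigens, had 4.10 ± 1.03 and 1.28 ± 0.19. The cathepsins CTSD and CTSH had 4.26 ± 0.92 and 3.79 ± 0.96 in H24/NC, and 1.40 ± 0.39 and 1.33 ± 0.21 in H8/NC. The CTSD groups overlapped in H8/NC, as H8 replicate 2 (45.3 FPKM) lay below NC replicate 1 (46.7 FPKM).

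CTSB, a further cathepsin, was called in H24/NC (2.31 ± 0.66) but not in H8/NC (0.61 ± 0.20). MARCH1, the ubiquitin ligase that removes class II from the cell surface, had 4.04 ± 0.89 in H24/NC and 1.503 ± 0.61 in H8/NC, the latter with overlapping groups. After 8 weeks, 5 processing genes and 1 of the 10 presentation genes were thus called, but the difference between these lists was not tested. Without H24 replicate 3, 6 of the 16 were called in H24/NC (6.7% of all genes tested), with a median of 0.64. In H24/H8, 1 was then called (3.8% of all genes tested), with a median of 0.29. The 6 called in H24/NC were CTSS with 3.47, MARCH1 with 2.64, CTSD with 2.59, IFI30 with 2.06, CTSH with 1.91 and CTSB with 1.17.

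CD74 at the cell surface works with other receptors for MIF. Of 5 genes tested, 4 averaged at least 0.1 FPKM in both groups of H24/NC, and likewise 4 in H8/NC. Among these, 1 was called higher in H24/NC and 2 in H8/NC, against 9.95% and 5.11% of all genes tested. In H24/H8, 0 of 5 were called by edgeR, against 7.22% called higher and 3.05% called lower of all genes tested. CXCR4, a chemokine receptor, had log2 fold changes of 3.96 ± 0.65 in H24/NC and 2.76 ± 0.85 in H8/NC, the latter with overlapping groups. CXCR2, found on neutrophils, had 3.21 ± 1.11 in H24/NC, where its NC mean was under 0.1 FPKM. It was tested and called there through its H24 values and is not in the count above. CD44, the signalling partner of CD74, was called in H8/NC (1.19 ± 0.32) and had 0.47 ± 0.51 in H24/NC. In the fit without H24 replicate 3, 1 of the 5 was called in H24/NC, against 6.7% of all genes tested. This was CXCR4 with 3.19 ± 0.46, while CXCR2 had 1.59 ± 0.88 and CD44 had -0.39 ± 0.23. CD44 was then called lower in H24/H8 (-1.58 ± 0.43), where it had -0.77 ± 0.59 with all libraries.

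On the T cell side, 8 genes were listed and all had low levels. Of the 8, 7 averaged under 0.1 FPKM in NC and entered the H24/NC test only through their H24 values, so that the number of calls among them is no measure of the list. LAG3 was the exception. In H24/H8, 4 of the 8 reached 0.1 FPKM in both groups, of which 2 were called higher (1 without H24 replicate 3). Of all genes tested, 7.22% were called higher there (3.8% without H24 replicate 3). CD4, the co-receptor that binds class II, was listed at 0 to 0.0334 FPKM in NC, 0.0816 to 0.657 FPKM in H8 and 0.653 to 7.33 FPKM in H24, with log2 fold changes of 7.28 ± 1.41 in H24/NC and 4.15 ± 1.21 in H8/NC. Its NC mean was 0.0194 FPKM, so it entered the H8/NC test only through its H8 values. Macrophages of some species carry CD4 as well. CD3E, a chain of the T cell receptor complex, had 0.0465 to 0.133 FPKM in NC, 0.0973 to 0.208 FPKM in H8 and 1.22, 15.8 and 4.98 FPKM in H24, and was called in H24/NC (6.20 ± 1.07) but not in H8/NC (0.76 ± 0.63).

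LAG3, an inhibitory receptor for class II, was called in both comparisons with NC (3.15 ± 1.08 and 3.30 ± 1.19), with 0.0313 to 2.68 FPKM in H8, where it overlapped NC. It had 1.07 ± 0.71 in H24/NC without H24 replicate 3 and was not called. CD3D (3.76 ± 1.32) and ICOS (4.84 ± 1.59) were called in H24/NC, and CD3G (3.79 ± 0.86) in H24/H8. Each was tested there only through its H24 values, as CD3D and ICOS averaged under 0.1 FPKM in NC and CD3G averaged 0.0211 FPKM in H8. With H24 replicate 3 left out, CD4 (5.66), CD3E (6.41) and ICOS (4.08) were still called in H24/NC and CD3D (2.56) was not. That fit kept the filter on low values as set with H24 replicate 3. ICOS averaged 0.153 FPKM in H24 replicates 1 and 2 and 0.00874 FPKM in NC, and would not have passed the filter without H24 replicate 3.

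**Figure D4:**
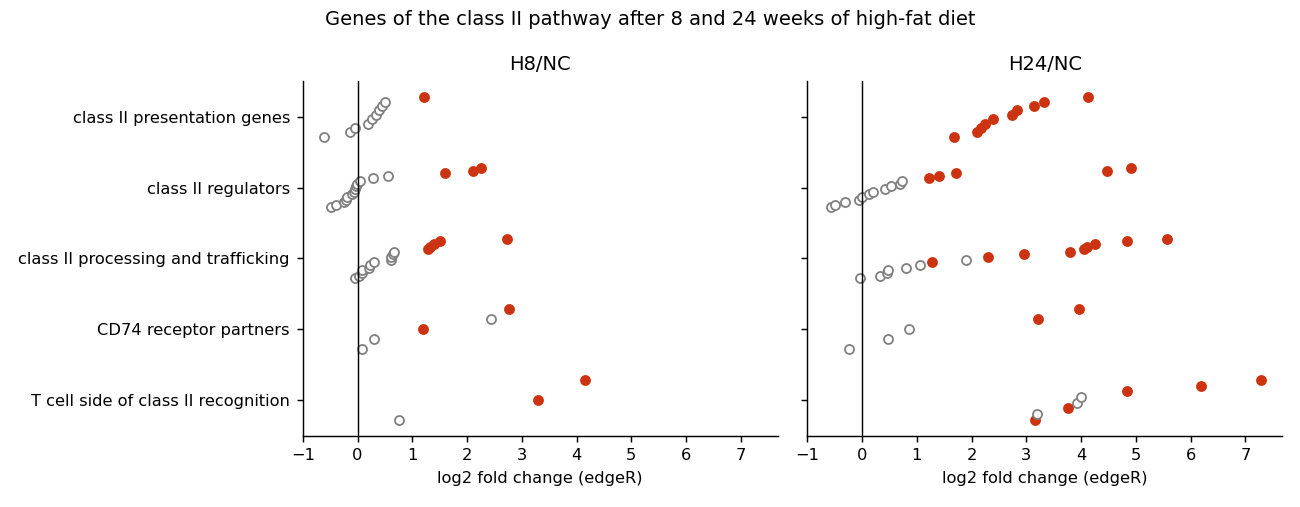
log2 fold changes of the class II presentation genes and the other genes of the pathway in H8/NC and H24/NC. Each point is a gene that passed the filter on low values, filled where it was called higher by edgeR (log2 fold change above 1 and unadjusted p under 0.05) and open where it was not called. In H24/NC all 10 presentation genes are filled, and in H8/NC 1 of 10. Of the T cell side genes in H24/NC, 7 of 8 passed the filter only through their H24 values, as did CXCR2 among the CD74 receptor partners.

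SLA-DRA to SLA-DOA span 357944 bp of chromosome 7 (24825011 to 25182954 on Sscrofa11.1), where the table lists 15 genes, 8 of them class II presentation genes. Of the 7 others, 6 were called higher in H24/NC, 0 in H8/NC and 5 in H24/H8, against 9.95%, 5.11% and 7.22% of all genes tested. The 7 others hold the peptide transporter and immunoproteasome genes of the class I pathway. TAP1 had a H24/NC log2 fold change of 1.43 ± 0.33, PSMB8 of 1.995 ± 0.52 and PSMB9 of 2.44 ± 0.75, each called, and an unnamed gene described as TAP2 had 1.45 ± 0.33. The PSMB8 model (25053132 to 25073046, minus strand) is longer than the RefSeq gene (25058456 to 25061666). It covers the whole TAP1 model on the same strand and overlaps those of PSMB9 and the gene described as TAP2. Reads of these genes therefore cannot be assigned with certainty, and their calls are not separate measurements. BRD2, a bromodomain gene between SLA-DMA and SLA-DOA, was not called and had -0.05 ± 0.21. Without H24 replicate 3, 5 of the 7 were called in H24/NC and 2 in H24/H8, against 6.7% and 3.8% of all genes tested. The H24/NC estimates were then 1.11 for TAP1, 1.14 for PSMB8 and 1.24 for PSMB9.

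Another 2 unnamed genes of the region lie where RefSeq places further class II sequences. One (24830958 to 24856905) covers the pseudogene SLA-DRB4 and had 3.57 ± 1.14 in H24/NC. The other (24993416 to 25001394) covers parts of the pseudogene SLA-DRB5 and of a protein-coding gene (LOC100513097) and had 2.60 ± 1.08 in H24/NC and -1.82 ± 0.72 in H8/NC, where it was the only gene of the region called lower. When H24 replicate 3 was left out, the first had 2.91 ± 1.07 in H24/NC and the second 1.04 ± 0.79, which was not called. RefSeq lists 5 pseudogenes in this span, and reads that fit several of these similar sequences may have been shared between them.

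**Figure D5:**
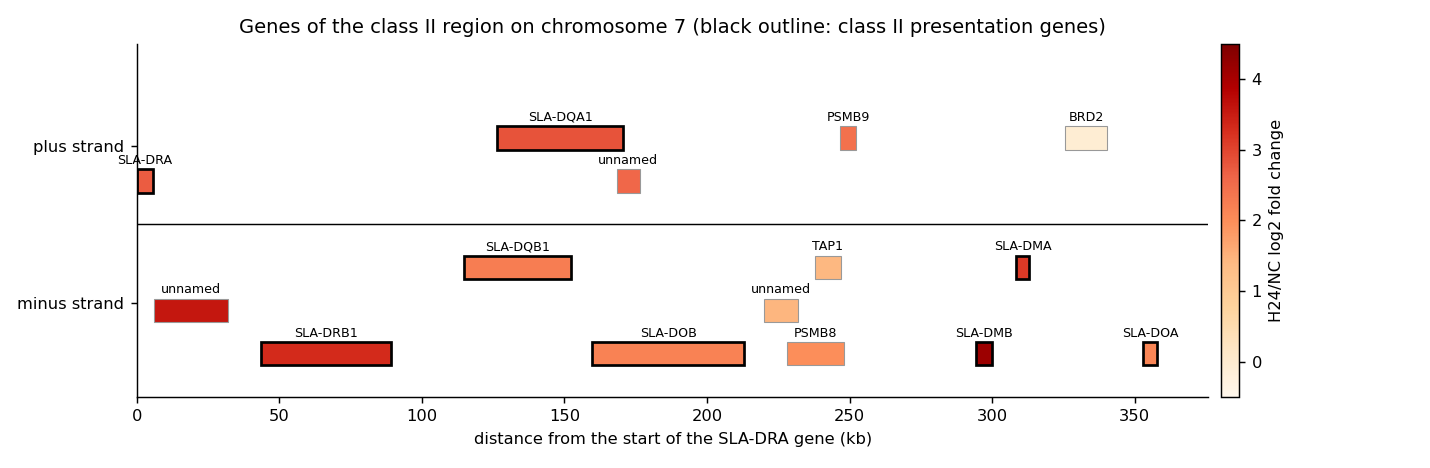
Map of the 15 genes listed in the class II region of chromosome 7, drawn to scale from the start of SLA-DRA, with the plus strand above and the minus strand below (rows within a strand only separate neighbours). Colour gives the H24/NC log2 fold change and a black outline marks the class II presentation genes. SLA-DMB is the darkest (4.13) and BRD2 the lightest (-0.05).

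The 10 genes had similar patterns over the 9 libraries. Pearson's r of log2(FPKM + 0.1) between a gene and the mean of the 10 (each standardized, the gene itself included) was 0.997 for SLA-DRA, 0.991 for CD74 and 0.990 for SLA-DMA, and lowest for SLA-DOB (0.917) and CIITA (0.805). Without H24 replicate 3 these values were 0.991, 0.974, 0.971, 0.839 and 0.742. Among 9742 other named genes with a mean of at least 1 FPKM, those most like this mean were B3GNT3 (r = 0.992), SNX8 (0.983), TTYH2 (0.982), SLC29A3 (0.982) and SLC8B1 (0.981), with 0.947 to 0.977 without H24 replicate 3. They are a glycosyltransferase, a sorting nexin, a tweety-family membrane protein and 2 solute carriers. B3GNT3 had 3.92, 6.39 and 3.58 FPKM in NC, 7.10, 3.02 and 3.76 FPKM in H8, and 13.0, 10.7 and 47.0 FPKM in H24. These values describe libraries that share their groups and H24 replicate 3, and they carry no p-value.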

How the data were processed

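The authors extracted RNA with an integrity number above 7.0 from the end of the abdominal aorta, prepared paired-end poly(A) libraries, mapped the reads with HISAT 2.0 to the pig genome (Sscrofa11.1) and assembled transcripts with StringTie 1.3.0. The submitters' processing notes also list Bowtie 0.12.2 and the build mm8 with no role. The authors deposited 1 table with an FPKM value and an estimated count per gene and library. How the counts were derived, the annotation release and the strand setting are not given in the sources used here. All value columns of the table were used (0 left out), and sample groups came from the labels.

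Genes whose FPKM averaged 0.1 or more across the libraries of a comparison were tested on the deposited estimated counts, which are whole numbers, with edgeR 4.0.16 (TMM, quasi-likelihood test) in R 4.3.3, the 2 groups of each comparison alone. Fits with a library left out kept this filter as set on all libraries of the comparison. P-values measure the spread between 3 libraries per group, which came from separate pigs in NC and H24 by the study's methods. For H8 the sources do not say so, and its spread may be technical. SE is the log2 fold change divided by the root of the F statistic. Where a name had several rows (124 names), the one with the highest mean FPKM was used. Positions are those of the table. RefSeq positions come from its Sscrofa11.1 gene table. Ratios were compared by exact permutation tests in SciPy 1.17.1.

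The genes, gene lists and cell markers were chosen with earlier results of these data known. Named genes were all 10 presentation genes, up to 6 called genes per pathway list by smallest p, and the 5 genes most like their mean. The RFX, NFY and CREB1 group, single markers and region genes were named after their values were seen. Alternatives were DESeq2 1.42.0, median-ratio and library-size scaling, other filters, limma 3.58.1 on log2(FPKM + 0.1) and log2(FPKM + 1), all 9 libraries in 1 fit, a replicate block and each library left out. Restriction to the 6 genes found by name, and the count of marker and T cell side calls over genes at 0.1 FPKM or more in both groups, were added after the data were seen. The test was tried on simulated data with known changes.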

Additional observations from a re-analysis of the deposited data

How the results depend on the processing

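All 10 genes kept a positive H24/NC and H24/H8 log2 fold change under every alternative run. Of 149 values of single genes under alternatives per comparison, 140 in H24/NC and 144 in H24/H8 stayed on their side of the threshold, and 9 and 5 lost the call. In H8/NC, 132 stayed, 7 lost the call (all SLA-DMB), 1 gained it (SLA-DQB1 without NC replicate 2, 1.04) and 9 changed sign. A filter at a mean FPKM of 1 removed SLA-DOB.

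The number of presentation genes past the adjusted threshold was 9 (H24/NC) and 10 (H24/H8) with DESeq2, and 0 to 4 in H24/NC with 1 library left out (4 without H24 replicate 3). With the 6 genes found by name only, 6 were called in both. In H8/NC, 0 were called with limma on log2(FPKM + 0.1) or log2(FPKM + 1) and with all 9 libraries, and 0 to 2 with 1 library left out. Of all 14336 genes tested, the first 3 of these settings called 454, 202 and 534 higher. Pathway genes called in H24/NC were 21 (5 of them at a mean FPKM under 0.1 in NC), but 13 with limma on log2(FPKM + 1) and 13 to 24 with 1 library left out (13 without H24 replicate 3). In H8/NC they were 12 (CD4 among them at a mean FPKM under 0.1 in NC), but 6 with limma on log2(FPKM + 1). In H24/H8 they were 13 (CD3D, CD3G and ICOS among them at a mean FPKM under 0.1 in H8), but 4 with limma on log2(FPKM + 1). They were 4 to 19 with 1 library left out (4 without H8 replicate 2, 5 without H8 replicate 3, 6 without H24 replicate 3). Of all genes tested, leaving 1 library out gave 993 to 1788 of 14828 called higher in H24/NC. It gave 568 to 806 of 14336 in H8/NC and 553 to 1401 of 14788 in H24/H8. With 1 library left out, H8/NC estimates ran from -0.45 to 0.56 for SLA-DOA, -0.62 to 0.0765 for SLA-DOB and -0.13 to 0.41 for SLA-DRB1, the SLA-DQ to SLA-DR log2 ratio from -0.11 to 0.29 and the CD74 to SLA-DRA log2 ratio from -0.22 to 0.00836. The causes were not tested.

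Replicate numbers did not pair the pigs (r of same-numbered deviations -0.060 to 0.102, each library closest to its own number for number 2 only). With the replicate block, 8 presentation genes were called in H24/NC and 0 in H8/NC, where SLA-DOA was at 0.0206. In H24/H8, 10 presentation genes and 7 pathway genes were called with the block. Of all genes tested, the block gave 1114 of 14828 called higher in H24/NC, 639 of 14336 in H8/NC and 800 of 14788 in H24/H8.

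Scaling by library size alone moved the median of all genes to -0.13 in H8/NC and 0.24 in H24/H8, and the split of calls from 733 higher and 326 lower to 576 and 459 (H8/NC) and from 1068 and 451 to 1447 and 290 (H24/H8). The medians of the 10 genes were then 0.16 and 2.47. Over all genes, limma on log2(FPKM + 1) called 714 higher and 141 lower in H24/NC (1475 and 225 by edgeR), 202 and 141 in H8/NC, and 517 and 177 in H24/H8, and limma on log2(FPKM + 0.1) called 454 and 505 in H8/NC. DESeq2 called 879 higher and 75 lower past the adjusted threshold in H24/NC, where edgeR called 0 (2055 genes at an unadjusted p under 0.05). With 3 libraries per group and H24 replicate 3 far from the others, H24 effect sizes are loosely fixed.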

Other observations

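The H8 libraries differed in which genes of the pathway were high, and the following values were chosen after they were seen and have no test. In H8 replicate 2 the interferon-induced factor IRF1 was at 46.8 FPKM and CD44 at 70.6 FPKM, both the highest of the group, while SPI1 (4.31 FPKM), IRF8 (1.24 FPKM), CTSS (4.41 FPKM) and CIITA (0.506 FPKM) were the lowest. H8 replicate 1 had the opposite arrangement for the myeloid genes, with SPI1 at 14.9 FPKM, IRF8 at 4.78 FPKM and CTSS at 45.1 FPKM, beside the highest SLA-DMB (28.6 FPKM) and SLA-DRA (193.5 FPKM) of the group. CIITA was highest in H8 replicate 3 (3.09 FPKM).

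The T cell markers were not highest in the same H24 library. CD3E was highest in H24 replicate 2 (15.8 FPKM), whereas the other 6 (CD3D, CD3G, CD2, CD5, CD8A and TRAT1) were each highest in H24 replicate 3 and summed to 11.3 FPKM there, against 1.62 FPKM in replicate 2. Replicate 2 was the H24 library with the lowest macrophage marker sum (181 FPKM) and with the lowest level of 7 of the 10 class II presentation genes. CD4 was lowest in that library (0.653 FPKM). ADIPOQ and LPL, both taken from the adipocyte list, were uneven in different ways. ADIPOQ was at 4.44 to 14.6 FPKM in NC, at most 0.106 FPKM in H8, and 7.24, 0.0705 and 0.416 FPKM in H24, while LPL was at 2.91 to 6.49 FPKM in NC, 2.63 to 9.06 FPKM in H8, and 26.2, 7.13 and 131 FPKM in H24. FABP4, the most abundant of the list, was at 75.1 to 122 FPKM in NC, 47.9 to 139 FPKM in H8 and 54.3 to 88.2 FPKM in H24.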
